A study of Rattus norvegicus with 24 samples.

Results

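The strain difference in the salt response was the contrast examined: how far the change of a kidney transcript between high salt (HS) and low salt (LS) in strain 13 departed from the change in strain SS. All 24 of 24 two-colour arrays entered it, and 1164 of 1561 probes with a value could be tested. The groups were rats of strain 13 on LS, strain 13 on HS, strain SS on LS and strain SS on HS, all at 2 weeks. From what is known of the study, SS is the Dahl salt-sensitive rat, strain 13 is the same rat with its chromosome 13 replaced by that of a salt-resistant strain, and every group therefore shares the SS background outside that chromosome. The labels give kidney and the series title the renal medulla; the sources used here give neither the age of the animals nor whether RNA of several animals was pooled.

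Each array was hybridised with RNA of 2 of these groups. The 4 comparisons were HS against LS in strain 13, HS against LS in SS, 13 against SS on LS, and 13 against SS on HS, with 6 arrays each. They form a closed loop, so the contrast could be measured by 2 routes. The diet-array estimate was the HS/LS log ratio of strain 13 minus that of SS, from 12 arrays. The strain-array estimate was the 13/SS log ratio on HS minus that on LS, from the other 12 arrays. Without measurement error the 2 estimates are equal, and their mean is called the interaction here. An interaction above 0 says that the HS/LS ratio was higher in strain 13 than in SS.

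In salt-sensitive rats a high salt diet raises blood pressure and injures the kidney, with scarring of the medulla. The renal medulla reabsorbs salt in the thick ascending limb and concentrates urine along the collecting duct. Some of its tubules, not all, burn fatty acids, lactate and ketone bodies. Matrix genes such as the fibrillar collagens are the usual transcript markers of scarring, and carriers of salt and water mark the tubule.

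The values are log ratios of the 2 channels. No source used here gives the log base, so no fold is stated. Arrays held between 726 and 1402 values (median 1202.5), and the number of arrays limits the precision. The signs (HS relative to LS, 13 relative to SS) are likely and not settled: they rest on 13 titles that name the channels, of which 1 belongs to a diet array. Of the 6 SS diet arrays, 5 titles name no strain and the other opens like a strain 13 title while its channel text names SS. If every sign were turned at once, every interaction below would change sign, counts above and below 0 would trade places, and the number of probes past a threshold would stay as it is. Values are means ± SD over 3 replicates. Each replicate is the average of a forward and a dye-swap array, or the value of whichever array held one. No source used here says that the replicates were separate animals, so the p-values cover the spread of these samples alone, which may be technical.

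The strains differed in their diet change at 5 of 1164 probes (0.43%; limma with Benjamini-Hochberg adjusted p below 0.05). Acsl1, Pcsk6 and Slc16a7 had an interaction above 0, and Csnk2b and Tnnt2 had an interaction below 0. In each of the 5 the mean HS/LS ratio was larger in size in SS than in strain 13, and the mean 13/SS ratio was larger in size on HS than on LS. For Csnk2b and Tnnt2 the small strain 13 mean joined values of opposite sign, with replicate 1 below 0 and the others above it. Over the 5 genes the median size was 0.478 in the SS diet comparison and 0.065 in the strain 13 diet comparison. It was 0.482 between strains on HS and 0.110 on LS. An unadjusted p below 0.05 was reached by 182 probes (15.6%), 103 above 0 (8.85%) and 79 below 0 (6.79%).

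The call is sensitive to single replicates and to the error estimate. Without replicate 1 there were 10 calls, and without replicate 2 or replicate 3 there were 0 (102 and 122 probes with an unadjusted p below 0.05). Without the forward array of replicate 1 on LS, which held the fewest values, there were 2 calls, Acsl1 and Pcsk6. The 2 estimates may share RNA extracts, which the fit does not model. When the 2 were first averaged within each replicate and limma was fitted to these 3 values alone, no probe passed (lowest adjusted p = 0.122; 144 of 1122 probes, 12.8%, with an unadjusted p below 0.05).

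Acsl1 encodes a long-chain acyl-CoA synthetase, the enzyme that activates fatty acids for oxidation or lipid synthesis. Its HS/LS log ratios were -0.255, -0.58 and -0.33 in the 3 SS replicates and 0, 0.095 and 0.035 in strain 13. The 13/SS log ratios were 0.53, 0.45 and 0.535 on HS and 0.045, 0.015 and 0.07 on LS. Neither pair of groups overlapped. The interaction was 0.45 ± 0.10 (limma adjusted p = 0.0353), from a diet-array estimate of 0.43 ± 0.22 and a strain-array estimate of 0.46 ± 0.03.

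Pcsk6 encodes a proprotein convertase of the secretory pathway, also known as PACE4. In SS its HS/LS log ratios were -0.395, -0.335 and -0.185, and in strain 13 they were 0.095, 0.125 and 0.125. Between strains the log ratios were 0.455, 0.32 and 0.545 on HS and 0.155, 0.03 and 0.145 on LS. All SS diet values were below 0 and all strain 13 values above it. The interaction was 0.38 ± 0.02 (limma adjusted p = 0.0458), with 0.42 ± 0.10 by the diet arrays and 0.33 ± 0.06 by the strain arrays.

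Slc16a7 encodes the monocarboxylate transporter MCT2, a carrier of lactate, pyruvate and ketone bodies. The SS diet values were -0.265, -0.76 and -0.41, against 0.19, 0.005 and -0.045 in strain 13. The strain values were 0.26, 0.39 and 0.395 on HS and -0.415, -0.295 and -0.03 on LS. The mean strain ratio was below 0 on LS (-0.25 ± 0.20) and above 0 on HS (0.35 ± 0.08). The interaction was 0.56 ± 0.17 (limma adjusted p = 0.0458), 0.53 ± 0.25 by one route and 0.60 ± 0.15 by the other.

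Csnk2b encodes the regulatory subunit of protein kinase CK2. Its HS/LS log ratios were 0.395, 0.86 and 0.915 in SS and -0.3, 0.255 and 0.24 in strain 13. The 13/SS log ratios were -0.415, -0.565 and -0.665 on HS and 0.335, 0.015 and 0.13 on LS. Replicate 1 of strain 13 was the only strain 13 value below 0, and replicate 1 of SS was also the lowest of SS, so the diet-array estimates stayed close (-0.695, -0.605 and -0.675). The interaction was -0.68 ± 0.08 (limma adjusted p = 0.0459), the largest in size of all 1164 probes.

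Tnnt2, on chromosome 13 itself, encodes the cardiac isoform of troponin T, a thin-filament protein of striated muscle. The HS/LS log ratios were 0.43, 0.61 and 0.655 in SS and -0.155, 0.295 and 0.29 in strain 13. The 13/SS log ratios were -0.52, -0.44 and -0.485 on HS and 0.04, -0.02 and 0.005 on LS. On LS the strain values thus lay within 0.04 of 0, although the gene lies on the replaced chromosome. They average forward arrays above 0 (0.31, 0.09 and 0.06) and dye-swap arrays below 0 (-0.23, -0.13 and -0.05). The interaction was -0.46 ± 0.11 (limma adjusted p = 0.04999). It was -0.61 on the forward arrays and -0.30 on the dye-swap arrays, the widest gap between orientations among the 5 genes.

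**Figure D1:**
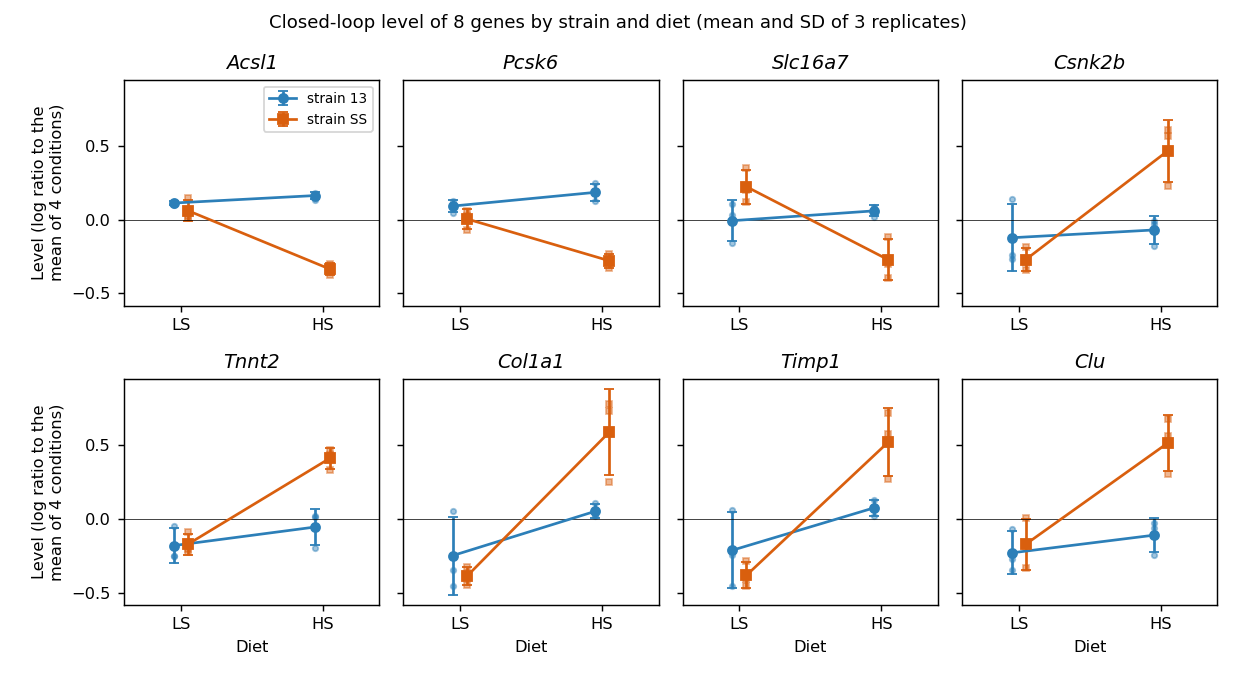
Level of 8 genes by diet (x axis) and strain (colour), as the log ratio to the mean of the 4 conditions, solved from all 4 comparisons of a replicate by least squares; small points are the 3 replicates and bars show mean ± SD. The first 5 genes passed the adjusted test and Col1a1, Timp1 and Clu did not; the SS mean on HS is the lowest of the 4 in the first 3 panels and the highest in the other 5.

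The upstream sequences of the 3 genes with an interaction above 0 are shown because each had its lowest mean of the 4 conditions in SS on HS. Their order over the other conditions was not the same. They are the 250 bases before the RefSeq start site in assembly GRCr8, which is of another rat strain, so they show neither the SS nor the strain 13 allele. Of the 5 genes, 4 matched the promoter table, and Tnnt2, which has 2 listed starts, is not printed. Capitals mark any match, on either strand, to the TATA box (TATAAA), the CCAAT box (CCAAT) or the GC box (GGGCGG). Positions are chr16:52532393-52532642 on the minus strand for Acsl1, chr1:128839492-128839741 on the plus strand for Pcsk6 and chr7:63040399-63040648 on the minus strand for Slc16a7.
Acsl1: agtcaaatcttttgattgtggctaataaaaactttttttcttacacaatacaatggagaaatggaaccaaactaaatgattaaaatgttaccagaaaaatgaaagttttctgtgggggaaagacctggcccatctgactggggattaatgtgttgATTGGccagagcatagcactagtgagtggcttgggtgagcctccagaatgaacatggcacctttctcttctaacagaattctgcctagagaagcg
Pcsk6: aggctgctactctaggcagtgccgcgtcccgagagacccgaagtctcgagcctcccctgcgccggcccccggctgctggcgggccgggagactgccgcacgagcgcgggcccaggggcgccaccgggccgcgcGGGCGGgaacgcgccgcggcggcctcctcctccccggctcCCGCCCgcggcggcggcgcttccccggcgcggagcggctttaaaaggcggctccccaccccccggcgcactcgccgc
Slc16a7: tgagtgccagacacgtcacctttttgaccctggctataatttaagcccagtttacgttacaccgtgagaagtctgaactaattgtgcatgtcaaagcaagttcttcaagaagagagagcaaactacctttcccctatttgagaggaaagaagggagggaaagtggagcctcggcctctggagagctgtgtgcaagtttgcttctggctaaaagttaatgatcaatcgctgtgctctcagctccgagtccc
The 3 windows had little in common in base composition. GC content was 40% for Acsl1, 80.4% for Pcsk6 and 47.2% for Slc16a7, against a median of 51.2% over 33469 promoters. Acsl1 held 1 CCAAT match, found in 34% of all these windows, and Pcsk6 held 2 GGGCGG matches, a motif found in 30.5%. Slc16a7 held none of the 3 motifs, and TATAAA, found in 12.9% of windows, was in none of the 3 sequences.

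The threshold cut through a continuous run of genes. The last inside was Tnnt2 (adjusted p = 0.04999), and Got1, Tsc22d1, Dnase1 and Mgp stood just outside (adjusted p = 0.0569 for each, limma). The 24 named genes with the lowest p comprised 11 above 0 and 13 below 0, between 0.2542 and 0.6833 in size, with adjusted p from 0.0353 to 0.0646. In all 24 the 3 diet-array and 3 strain-array estimates had one sign, which held for 163 of 1006 probes measured throughout (16.2%). A low p selects such genes, so the count describes them and tests nothing.

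**Figure D2:**
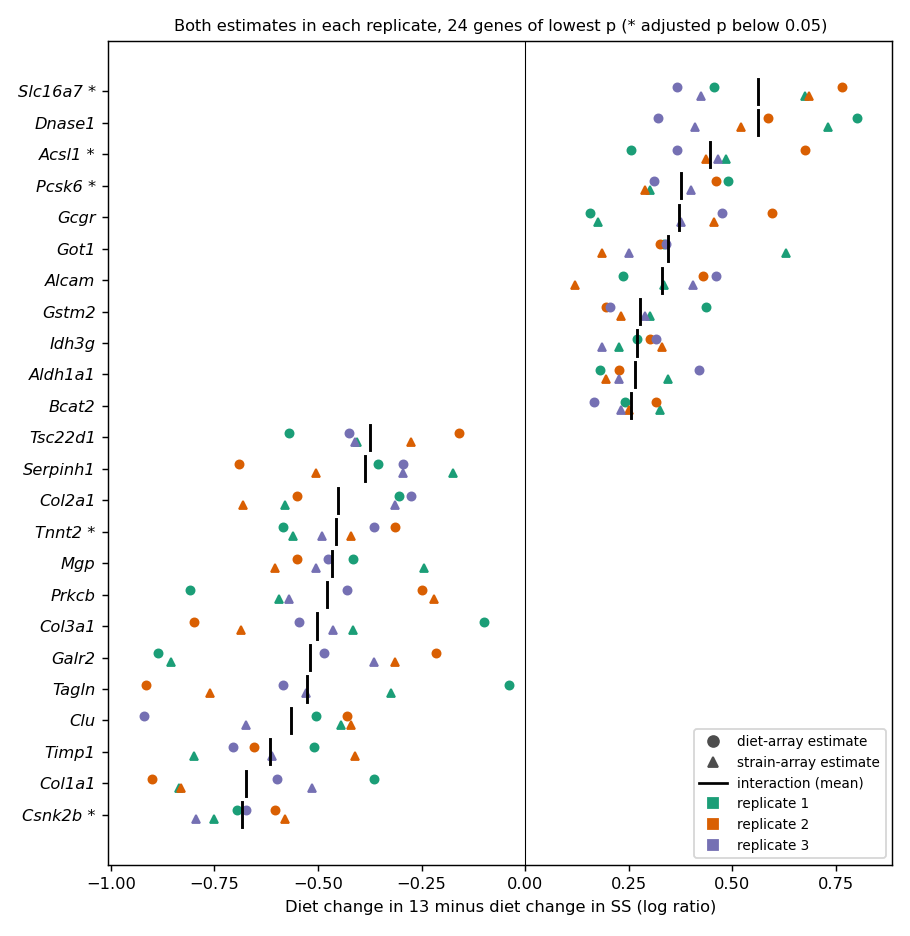
Diet-array estimates (circles) and strain-array estimates (triangles) in each replicate (colour) for the 24 genes of lowest p, on a log ratio axis, with the interaction as a black bar; an asterisk marks an adjusted p below 0.05. Every point of a gene lies on one side of 0, while the points of Tagln and Col3a1 from replicate 1 lie nearer to 0 than those of replicates 2 and 3.

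Genes of the matrix list lay mostly on the lower side, in 20 of 26 cases, where 49.7% of all probes lay above 0. The list is broader than the extracellular matrix. It also holds Vim, a filament protein of the cell, and Ctsl, a lysosomal protease (-0.28 ± 0.14 and -0.17 ± 0.03), both counted among the 10 below. Of 26 matrix genes tested, 0 passed the adjusted test, 10 had an unadjusted p below 0.05 below 0 and 3 above 0, which is 50% against 15.6% of all probes. The median interaction of the list was -0.11, against -0.0008 over all probes. The fibrillar collagens Col1a1 and Col3a1 had -0.67 ± 0.17 and -0.50 ± 0.24 (limma adjusted p = 0.0593 for both). The metalloproteinase inhibitor Timp1 had -0.62 ± 0.07, with 0.91 ± 0.26 for HS/LS in SS and 0.28 ± 0.17 in strain 13 (adjusted p = 0.0569). For 13/SS on LS, its replicate 1 held a dye-swap value only (0.54) and its replicate 2 a forward value only (-0.23). Mgp, an inhibitor of calcification, had -0.47 ± 0.13 (adjusted p = 0.0569). Outside the list, Serpinh1, the collagen chaperone HSP47, had -0.39 ± 0.18 (adjusted p = 0.0593).

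Not every gene of the matrix list lay on that side. The growth factor chain Pdgfa had 0.26 ± 0.07 (limma adjusted p = 0.0905). Lamb2, a laminin chain of basement membranes, had 0.34 ± 0.06 (adjusted p = 0.0905), but 2 of its LS strain replicates held a dye-swap array only, and on dye-swap arrays alone it had 0.0033. The hyaluronan receptor Cd44 had 0.22 ± 0.02 (adjusted p = 0.216). Eln, which encodes elastin, had -0.62 from the comparison means (adjusted p = 0.15), and -0.65 and -0.465 in the 2 replicates with a value in every comparison. Each of its SS diet replicates lacked an orientation. Osteopontin (Spp1) had -0.32 ± 0.17 (adjusted p = 0.0646).

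The matrix values were carried by 2 of the 3 replicates. The mean interaction of the 25 matrix probes measured in every RNA pair was -0.002 in replicate 1, -0.240 in replicate 2 and -0.208 in replicate 3. Both routes gave this order, with diet-array estimates of -0.028, -0.262 and -0.216 and strain-array estimates of 0.024, -0.217 and -0.200. Col1a1 still had -0.60 in replicate 1, beside -0.87 and -0.56, whereas Col3a1 had -0.26 there, beside -0.74 and -0.51.

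Muscle transcripts lay below 0. All 8 smooth and skeletal muscle markers tested had an interaction below 0 (7 with arrays centred on their medians), with a median of -0.23, 4 with an unadjusted p below 0.05 (50% against 15.6% of all probes), and Tnnt2 passed the adjusted test. Tagln (transgelin), which binds actin in smooth muscle, had -0.18, -0.84 and -0.56 in the 3 replicates (adjusted p = 0.0569), and Actg2, smooth muscle actin, had -0.31 ± 0.20 (adjusted p = 0.289). Over the 7 markers measured in every pair the mean was -0.123, -0.295 and -0.280, and the HS/LS mean in SS was 0.104, 0.331 and 0.429. In bulk tissue, fewer cells of a type and less RNA per cell cannot be told apart. Log ratios hold no level, so the labelled tissue could not be set against defining markers by abundance.

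Among kinases, 4 members of the CK1, CK2, PKA and PKC list were tested and 2 had an unadjusted p below 0.05, both below 0 (50% against 15.6% of all probes), while the other two lay above 0. Besides Csnk2b this was Prkcb, the beta isoform of protein kinase C, with -0.70, -0.24 and -0.50 in the 3 replicates (limma adjusted p = 0.0569). Clu, which encodes the secreted chaperone clusterin, had -0.57 ± 0.20 (adjusted p = 0.0569), with HS/LS at 0.71 ± 0.38 in SS and 0.09 ± 0.26 in strain 13. It belonged to 11 complement and acute phase genes, of which 10 lay below 0 with a median of -0.06 (8 with arrays scaled to equal spread). Clu alone of the 11 had an unadjusted p below 0.05 (9.09% against 15.6% of all probes). Cyba, a subunit of NADPH oxidase, had -0.25 ± 0.10 (adjusted p = 0.194), and 18 of 25 redox and metal genes lay below 0 (median -0.07). In that list 8% had an unadjusted p below 0.05, against 15.6% of all probes.

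Fatty acid genes lay mostly on the upper side. Of 31 genes of fatty acid activation and oxidation, 24 lay above 0, 7 had an unadjusted p below 0.05 above 0 and 1 below 0 (25.8% against 15.6% of all probes), and Acsl1 passed the adjusted test. The list median was 0.08. Acat1, which acts in ketone body metabolism, had 0.25 ± 0.04, and Cpt1a, the carnitine palmitoyltransferase that admits fatty acids to mitochondria, had 0.24 ± 0.09 (limma adjusted p = 0.0909 and 0.181). Acads, the short-chain acyl-CoA dehydrogenase, had -0.32 ± 0.19 (adjusted p = 0.216).

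The list of monocarboxylates, lactate, pyruvate and glucagon held Slc16a7 and Gcgr among the 24 genes of lowest p, and the list of amino acid breakdown held Got1 and Bcat2. Gcgr, the glucagon receptor, had 0.165, 0.525 and 0.425 in the 3 replicates (limma adjusted p = 0.0593). Got1, cytosolic aspartate aminotransferase, had 0.34 ± 0.12, and Bcat2, which transaminates branched-chain amino acids in mitochondria, had 0.25 ± 0.05 (adjusted p = 0.0569 and 0.0593). The value of Bcat2 was 0.05 on forward arrays and 0.46 on dye-swap arrays. Both lists were divided in sign: 7 of 11 genes of monocarboxylate, lactate, pyruvate and glucagon handling and 8 of 17 genes of amino acid breakdown lay above 0, with medians of 0.04 and -0.006 (0.0008 for the latter with arrays centred on their medians). Of 18 respiratory chain and ATP synthase genes, 13 lay above 0, with a median of 0.02. An unadjusted p below 0.05 was reached by 5.56% of them, against 15.6% of all probes. Idh3g, a subunit of the citric acid cycle enzyme isocitrate dehydrogenase and in none of these lists, had 0.27 ± 0.04 (adjusted p = 0.0593).

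Genes of the salt and water transport list lay above 0 in 16 of 17 cases, with a median of 0.10. An unadjusted p below 0.05 was reached by 6, all above 0 (35.3% against 15.6% of all probes). None passed the adjusted test. The list is broader than carriers and channels, since the 6 include the growth factor Egf and the steroid receptors Nr3c1 and Nr3c2. Slc12a1, the sodium-potassium-chloride cotransporter of the thick ascending limb, had 0.47, 0.15 and 0.17 in the 3 replicates (limma adjusted p = 0.145). Aqp3, a water channel of the collecting duct, had 0.20 ± 0.10 (adjusted p = 0.119). Nr3c2, the mineralocorticoid receptor, had 0.17 ± 0.06 (adjusted p = 0.311), but 0.40 on forward arrays and -0.03 on dye-swap arrays. Slc12a2, also among the 6, likewise had 0.49 on forward arrays and -0.17 on dye-swap arrays. Nr3c1 had 0.21 ± 0.03 (adjusted p = 0.119). Egf, a growth factor precursor made in the distal tubule, had 0.29 ± 0.10 (adjusted p = 0.0831). This list was alike in all replicates, with a mean over 17 probes of 0.136, 0.144 and 0.087.

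Smaller sets held a few more values. Isyna1, which makes inositol phosphate, the precursor of the osmolyte inositol, had 0.32 ± 0.07 (limma adjusted p = 0.0909), and 4 of 5 osmolyte genes lay above 0. Vegfa, the endothelial growth factor, had 0.30 ± 0.12 (adjusted p = 0.147). Of 28 cytosolic ribosomal proteins, 23 lay below 0 with a median of -0.08 and a range from -0.19 to 0.06. An unadjusted p below 0.05 was reached by 10.7% of them, against 15.6% of all probes. Of 11 proteasome subunits, 7 lay above 0, with a median of 0.06, and Pcsk6 was the only one of 4 proprotein processing genes away from 0 (list median 0.0075).

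Chromosome 13 genes were examined because that chromosome differs between the strains. Of 27 tested, 14 lay above 0 and 13 below, with a median of 0.02. An unadjusted p below 0.05 was reached by 6 (22.2% against 15.6% of all probes), 4 above 0 and 2 below. Besides Tnnt2, Glul, which encodes glutamine synthetase, had -0.29 ± 0.22 (limma adjusted p = 0.294). Ctse, the aspartic protease cathepsin E, had 0.51 and 0.20 in the 2 replicates with a value in every comparison (adjusted p = 0.234). Some of its RNA pairs lacked an orientation there.

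Markers of other cell types gave few values. The 3 lymphoid and myeloid markers (Cd48, S100a8 and Cd53) had interactions between 0.06 and 0.15, and the 2 endothelial markers had 0.14 (Kdr) and -0.003 (Vcam1, above 0 under the other scalings). All 4 blood markers lay above 0 (median 0.12), led by the erythropoietin receptor Epor with 0.52, 0.46 and 0.075 (limma adjusted p = 0.0831). Their part in the results above was not tested.

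Proximal tubule markers set replicate 1 apart. Of 22 tested, 16 lay below 0 (median -0.11), 14 with arrays scaled to equal spread and 15 with arrays centred on their medians. Only 1, the cytochrome Cyp4b1 at 0.41 ± 0.24, had an unadjusted p below 0.05 (4.55% against 15.6% of all probes). The mean of the 21 measured in every pair was -0.386 in replicate 1, 0.037 in replicate 2 and 0.050 in replicate 3. Both routes gave the same: -0.394, 0.036 and 0.034 by the diet arrays, and -0.379, 0.038 and 0.065 by the strain arrays. In replicate 1 the HS/LS mean of these markers was 0.178 in SS, against -0.355 and -0.332 in replicates 2 and 3. The enzyme of creatine synthesis Gatm had -1.05, -0.005 and 0.11. With the mean of these markers as a covariate 38 probes passed, the 5 genes among them. Their part in single genes was not tested further.

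**Figure D3:**
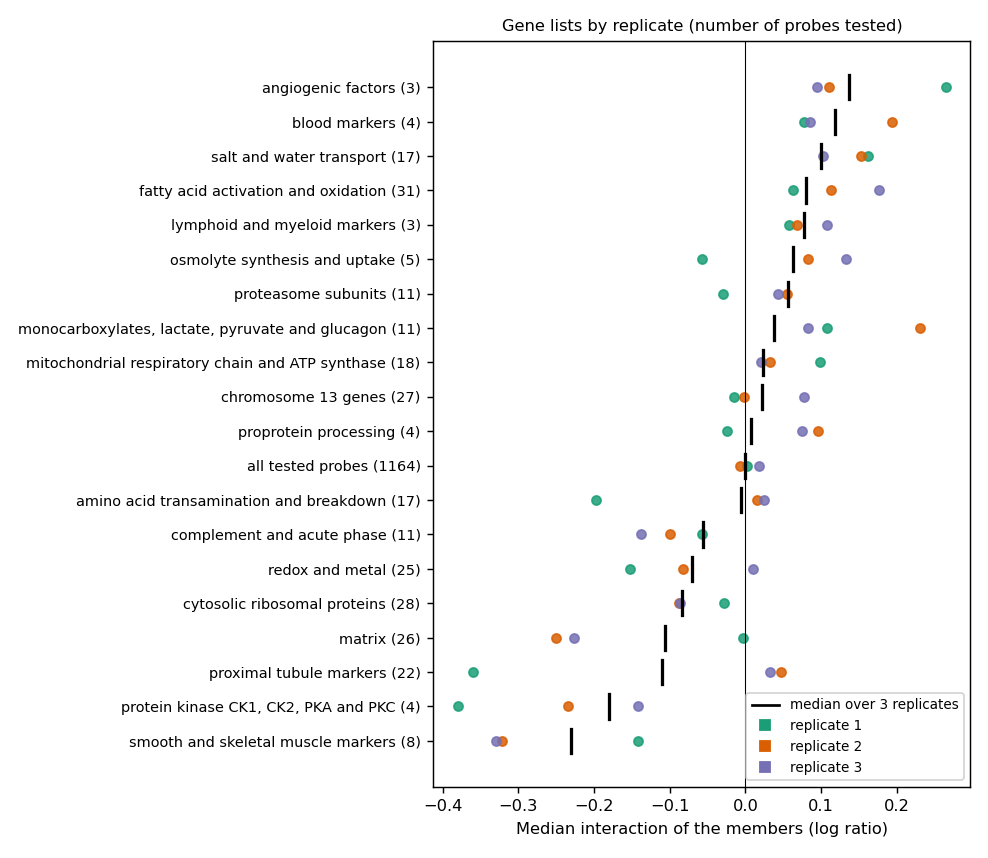
Median interaction of each gene list with at least 3 probes (y axis, number tested in brackets) in replicates 1, 2 and 3 (colour) and as the median over all (black bar), on a log ratio axis. Proximal tubule markers stand at -0.36 in replicate 1 and near 0 in the other two, and matrix genes stand near 0 in replicate 1 and below -0.2 in the other two.

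The agreement of the 2 routes was examined over all 1164 probes. With replicates averaged, the diet-array and strain-array estimates correlated with r = 0.579 across probes, and 824 probes (70.8%) had estimates of one sign. Genes are not independent replicates and both routes measure the same 4 kinds of RNA, so this correlation is a description. The SD over probes was 0.183 for the diet-array estimate, 0.187 for the strain-array estimate, 0.165 for their mean and 0.170 for their difference.

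**Figure D4:**
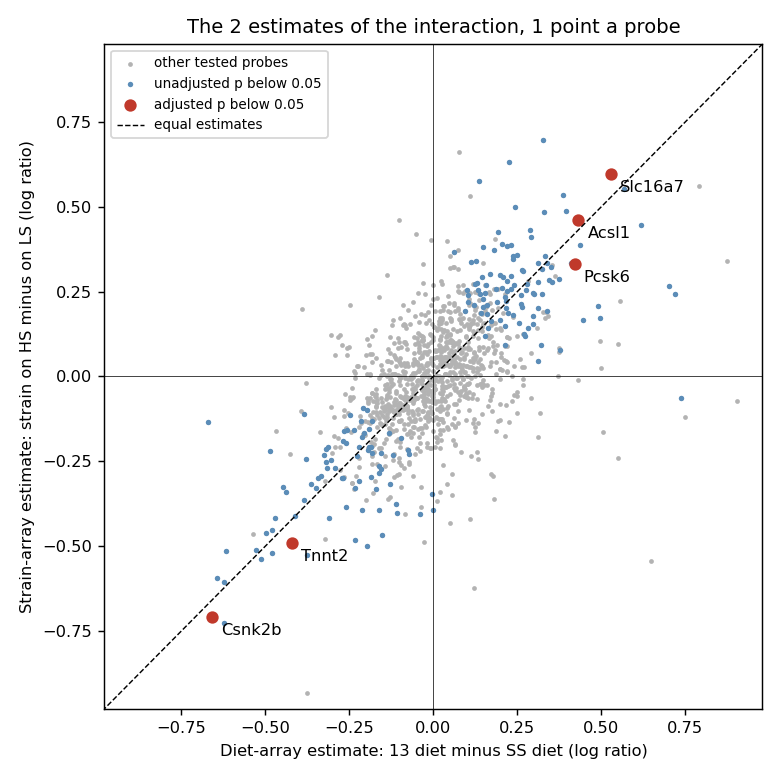
Strain-array estimate against diet-array estimate, both as log ratios, 1 point for each of the 1164 probes, with probes of unadjusted p below 0.05 in blue and the 5 of adjusted p below 0.05 in red with their names; the line marks equal estimates. The 5 named genes lie close to the line and far from the origin (r = 0.579 over all points).

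No probe showed a difference between the routes that passed the limma adjusted test (lowest adjusted p = 1), and 11 had an unadjusted p below 0.05 (0.945%). The fit takes its error from the spread between replicates of a comparison. When the routes were subtracted within each replicate and the 3 differences were tested alone, 65 of 1122 probes (5.79%) had an unadjusted p below 0.05 and 0 passed (lowest adjusted p = 0.807). A difference that misses the threshold does not show that the routes are equal.

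The routes lay closer together within a replicate than between replicates. Estimates with the same replicate number correlated with r = 0.498, 0.561 and 0.504, while the 6 pairs with different numbers had r from 0.098 to 0.253. The median gap between a diet-array and a strain-array estimate was 0.135 for the same number and 0.190 for different numbers. Between replicates of 1 route it was 0.190 for the diet arrays and 0.200 for the strain arrays. Replicate 1 stood furthest from the others, with an interaction that correlated at r = 0.197 and 0.136 with replicates 2 and 3, which correlated at r = 0.350 with each other. Same-numbered estimates may come from the same RNA extracts, which the channel names give for SS in replicate 3 only, and the part of shared RNA was not tested.

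**Figure D5:**
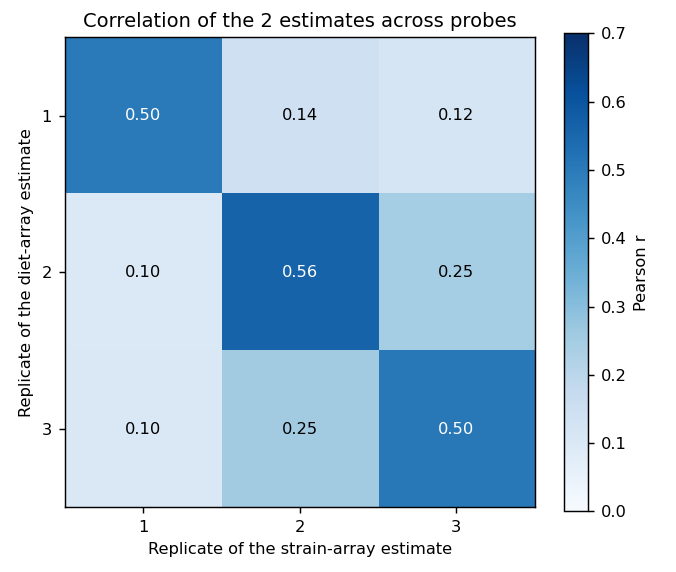
Pearson correlation across probes between the diet-array estimate of each replicate (rows) and the strain-array estimate of each replicate (columns), from 0 to 0.7 on the colour scale. The 3 values on the diagonal, of the same replicate number, run from 0.50 to 0.56 and the other 6 from 0.10 to 0.25.

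Neither route alone called a gene. In the same fit the diet-array estimate had 92 probes with an unadjusted p below 0.05 (7.9%) and the strain-array estimate 105 (9.02%), with lowest adjusted p of 0.358 and 0.269 (limma). For the 24 genes of lowest p the routes differed by a median of 0.038 and by at most 0.148, against a median of 0.093 over all probes, which follows in part from choosing genes by their mean. The routes lay furthest apart for Ptpn1, a tyrosine phosphatase, with 0.65 by the diet arrays and -0.54 by the strain arrays, from only 3 estimates (unadjusted p = 0.00768, adjusted p = 1). Nr2f2, a nuclear receptor, had 0.74 and -0.06, and Azin1, a regulator of polyamine synthesis, had -0.0008 and -0.40. Ldhb, a lactate dehydrogenase subunit, had 0.06 by the diet arrays and 0.37 by the strain arrays.

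The contrast lay in SS on HS more often than elsewhere among the genes of lowest p. Among those 24 genes the HS/LS ratio was larger in size in SS than in strain 13 in 24 cases, and the 13/SS ratio was larger on HS than on LS in 23. Over all 1164 probes these shares were 59.8% and 48.9%, and over the 182 with an unadjusted p below 0.05 they were 73.1% and 61%. Median sizes for the 24 were 0.497 for HS/LS in SS, 0.091 for HS/LS in strain 13, 0.432 for 13/SS on HS and 0.098 for 13/SS on LS. Idh3g was the exception: its 13/SS ratio was -0.22 ± 0.10 on LS and 0.02 ± 0.10 on HS. Since the interaction holds these ratios, the sizes describe where it arose and are no separate evidence.

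The 2 dye orientations were also set side by side. Computed from forward or dye-swap arrays alone, the interaction correlated with r = 0.217 over 949 probes, of which 489 had one sign in both. All 24 genes of lowest p had one sign in both. A low p selects such genes, so this count tests nothing. Among the 24, Col2a1 had -0.17 on forward and -0.67 on dye-swap arrays and Col3a1 had -0.28 and -0.72. A dye effect of a gene that is common to the comparisons cancels in the contrast where the comparisons hold the same mix of orientations. Where some RNA pairs lack an orientation, part of such an effect can remain. On pairs with both, 889 probes could be tested and 29 passed, the 5 genes among them. Slc16a7, which lacked a dye-swap value in 2 of its RNA pairs, had 0.55 there. Titles of strain arrays carry a date-like text and a slide-like text, either of which may mark a batch. Only in replicate 3 is the date-like text common to LS and HS. The strain-array estimate there was 0.465 for Acsl1, 0.40 for Pcsk6, 0.425 for Slc16a7, -0.795 for Csnk2b and -0.49 for Tnnt2. In replicates 1 and 2 the date-like text is not common to both diets, so it cannot be told apart from diet in that route. The slide-like text is mixed within LS and within HS.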

How the data were processed

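Kidney RNA was hybridised to 24 two-colour arrays, as 4 comparisons, 3 replicates and both dye orientations. What the authors deposited is a log ratio per probe and array (unit recorded as other). The log base, scanning, filtering and normalization were not given in the sources used here. Array means lay within 0.0049 of 0 and array medians within 0.04. The series table lists 3502 probe IDs, 1561 of them with a value and 548 on all arrays. The authors' dye-swap ratios were treated as already reversed. Between arrays of different comparisons, the median correlation was 0.339 for forward with forward, 0.342 for swap with swap and -0.084 for forward with swap, as a dye effect left in turned ratios gives. Symbols come from the platform annotation and were renewed through gene identifiers in RefSeq's GRCr8 table (1311 updated, 5 with a platform symbol only, 22 with several and 223 with none).

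The arrays of each replicate were averaged to 12 RNA pairs. limma 3.58.1 in R 4.3.3 (lmFit, eBayes) fitted 4 comparison means to all 1561 probes. The interaction and the difference of its estimates were tested (two-sided, Benjamini-Hochberg at 0.05) on the 1164 probes with at least 2 replicates in every comparison, 985 of them distinct symbols. The fit was tested on simulated data. The design had assumed log base 2, and no base was used. Genes are named where they passed the test, were among the 24 of lowest p or the 3 whose estimates differed with the lowest p, led 1 of 20 lists or had an unadjusted p below 0.05 in one, or were Col1a1, Col3a1, Timp1 or Gatm. S100a8, Cd53 and Vcam1 were named after their values were seen, to complete short lists. Contrast, lists and genes were chosen with earlier results of these data known. The ribosomal list was corrected after a kinase was found in it. Alternatives covered the error model, array subsets, replicates, scaling, filters and marker covariate.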

Additional observations from a re-analysis of the deposited data

Results flagged for a closer look

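In the strain comparison on LS, 1 array (forward, replicate 1) held 726 values and had an SD of 0.4738 over its log ratios, and both values stood apart from the other 5 arrays of that comparison. Of the 12 sets of arrays examined this way, chance would mark about 1 in 20.

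The diet change differed between the strains by the limma test of the interaction itself for 5 genes. The interaction was 0.4467 for Acsl1, 0.3750 for Pcsk6, 0.5617 for Slc16a7, -0.4558 for Tnnt2 and -0.6833 for Csnk2b. Each was of one sign in 3 of 3 replicates by both routes, which held for 163 of 1006 probes measured throughout (16.2%). A low p selects such genes, so this describes them and tests nothing.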

How the results depend on the processing

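The 5 genes kept their sign under the 20 alternatives computed for single genes, but not their call. Acsl1 ranged from 0.3925 to 0.4883 and missed the threshold under 8, Pcsk6 from 0.3217 to 0.4283 under 10, Slc16a7 from 0.4767 to 0.645 under 10, Csnk2b from -0.7471 to -0.62 under 11 and Tnnt2 from -0.6133 to -0.2983 under 11. Against 5 calls, limma gave 26 with a closed-loop fit, 13 from forward and 12 from dye-swap arrays, 12 without the SS diet array of conflicting title, 38 with the tubule covariate and 17 with values in all 3 replicates. It gave 0 from per-replicate values alone, diet arrays only, strain arrays only, arrays scaled to equal spread, strain estimates from replicate 3 only or from one slide text, and dye-swap arrays turned in sign. At an unadjusted p below 0.05 these 7 held 144, 100, 94, 196, 69, 100 and 145 probes. It gave 4 with arrays centred, 6 with 1 or more replicates and 5 without eBayes, of which 2 were the same genes. Of alternatives chosen after seeing the data, pairs with both orientations gave 29, a variance prior from the tested probes 25, and leaving out the sparsest LS strain array 2. Leaving out each replicate gave 0 to 10 calls, and r between the routes from 0.559 to 0.641. That r was 0.406 on forward arrays, 0.647 with values in all 3 replicates and between 0.546 and 0.579 otherwise. The count of probes whose routes differed was 0 under every alternative, the replicate block included. The causes were not tested.

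With the replicate block 8 probes passed, 4 of them among the 5, and Csnk2b had adjusted p = 0.0636. Same-numbered deviations of different comparisons correlated from -0.63 to 0.37 across probes, and were of one sign in 3 of 3 replicates for the SS diet with the HS strain comparison (-0.63, -0.53 and -0.27) and for both diet comparisons (0.18, 0.14 and 0.19). The labels do not state a pairing, and whether shared RNA pairs the numbers was not tested. Signs reversed for Slc12a2 (-0.1675) and Nr3c2 (-0.0342) on dye-swap arrays, Nr2f2 (-0.0633) and Ptpn1 (-0.5425) on strain arrays, and Gatm without replicate 1, with a range from -0.5250 to 0.05 over replicates left out. Apart from these reversals, values of single genes kept their side of the threshold 1196 times, gained it 118 times and lost it 50 times. These counts include the 5 called genes, and all the losses were theirs, as given above. Depth beyond the number of values per array is unknown, and 3 replicates limit the precision.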
